A study of Mus musculus with 16 samples.

Results

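Mouse skin sampled 12 h after the TERT transgene was shut off was compared with skin in which the transgene was left on. The comparison used the 4 arrays titled 12 h, of 16 in the series, namely 2 TERT-OFF and 2 TERT-ON arrays of 1 dorsal skin biopsy each. All mice carried the same 2 transgenes, K5tTA and tetop-TERT (together iK5-TERT), and were 60 days old, and the labels give their follicles as anagen. The keratin 5 promoter drives the tetracycline transactivator tTA in basal epidermis and in the outer root sheath, and tTA switches on the tetop-TERT transgene unless doxycycline is present. Doxycycline in the drinking water had held the transgene down during the development of both cohorts and had then been withdrawn. The TERT-OFF mice were injected with doxycycline (8 µg/g body weight), and the TERT-ON mice, by the study's methods, with saline. The mouse strain is not given in the labels. Arrays with 1 cohort and replicate number were treated as serial biopsies of 1 mouse at 0, 6, 12 and 24 h, which the labels do not state outright. Doxycycline is labelled as injected for the first TERT-OFF biopsies too, while the study's methods make 0 h the start, so whether they precede the injection is not settled, and each 0 h value and change from 0 h is given with that limit. A biopsy contains follicles, epidermis, dermis and whatever cells lie in them. In such bulk samples a smaller share of cells of a type and less RNA per cell cannot be told apart.

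TERT is the catalytic subunit of telomerase, which extends chromosome ends, and raised TERT in basal keratinocytes is known to push resting follicles into growth. In anagen, the growth phase, matrix cells at the base of the follicle divide under Wnt, BMP and Shh signals. Their daughters build the hair shaft out of hair keratins and keratin-associated proteins, within an inner root sheath. When growth ends the matrix is lost and the follicle shortens, and the dermis around it changes its makeup of matrix and immune cells.

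Values are the deposited intensities of Affymetrix probe sets, on a linear scale. A difference is the log2 intensity of TERT-OFF minus TERT-ON at 12 h with its standard error (SE), from 2 mice in each cohort. Intensities under 7.71 were raised to that floor first. A gene is called lower or higher where limma's p-value, adjusted over all 25563 probe sets tested, is under 0.05. Each of the 12580 genes tested is represented by its brightest probe set. The spread behind the test comes from all 16 arrays, since 2 arrays against 2 cannot go below 0.333 in an exact permutation test.

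The 4 arrays had like medians, from 33.3 to 35.7, and the ratio of 5′ to 3′ Gapdh signal, a sign of intact RNA, was 1.01 to 1.11 on them. An array that stood apart lay outside this comparison but inside the fit, TERT-ON replicate 1 at 0 h, with a Gapdh ratio of 0.0599. The keratins of the basal layer were bright in all 4 biopsies at 12 h, with Krt5 at 4138 to 5113 and Krt14 at 4998 to 6190. In the TERT-OFF cohort the mice differed before the 12 h biopsy. At 0 h, 12 keratins of the hair shaft averaged 4.33 in log2 intensity in TERT-OFF replicate 1, against 10.73 in TERT-OFF replicate 2 and 10.10 and 8.76 in the TERT-ON mice. TERT-OFF replicate 1 thus had little hair shaft signal at the first biopsy, and the medians of the hair gene lists are given below also without its 12 h array.

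At 12 h, 323 genes were called, 239 higher and 84 lower in TERT-OFF skin, which is 2.57% of the genes tested (1.90% higher and 0.668% lower). Of the probe sets 528 were called (2.07%), 377 higher and 151 lower. Of 116 called genes with more than 1 probe set, 23 had all of them called in the same direction. The median difference over all genes was 0.06, with 7069 genes above 0 and 5511 below. Among the called genes 201 of the higher and 62 of the lower differed by at least 1 on the log2 scale, as did 7.84% of all genes upward and 5.01% downward, with a median of 1.57 for the higher and −1.32 for the lower. For the same called genes the median differences of the higher ones at 0, 6 and 24 h were 0.23, 1.07 and 0.88 and those of the lower ones −0.28, −0.78 and −0.83, values that did not choose them but come from the same mice. The share of calls that were higher depended on scaling. It was 74.0% of the called genes here, 58.2% (212 higher, 152 lower) with arrays centred on their medians and 62.9% (202 higher, 119 lower) after quantile normalization. It also depended on the mice. Without all arrays of TERT-ON replicate 1 or of TERT-ON replicate 2, no gene passed, although 2452 and 1546 had an unadjusted p under 0.05. Without TERT-OFF replicate 1 the counts were 206 higher and 186 lower, and without TERT-OFF replicate 2 they were 191 higher and 330 lower. Without the 0 h array of low Gapdh ratio 167 genes were higher and 49 lower, and 25 of the 74 called genes that the naming rule picked lost their call, among them Lrat, Gm12446, Tmem100, Crygn, Il31ra, C1s1, Fgfr1, Mylpf, Tk1, Mcm5 and Ccnd2. With 1 array of 12 h left out at a time, 0 to 13 genes passed.

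**Figure D1:**
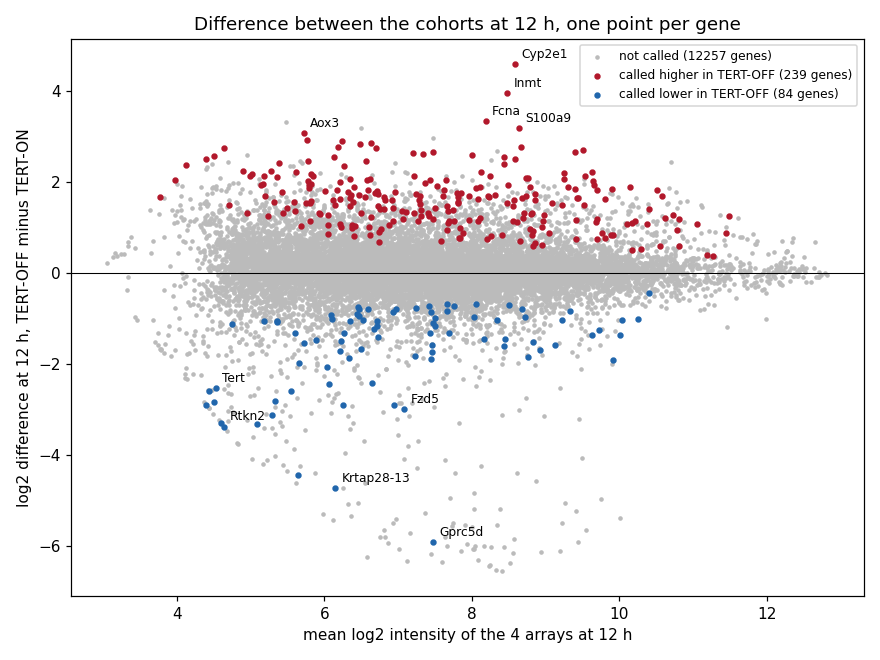
Log2 difference at 12 h (TERT-OFF minus TERT-ON, y axis) against the mean log2 intensity of the 4 arrays (x axis), 1 point per gene, with 239 genes called higher in red, 84 called lower in blue and the rest in grey. The calls lie across most of the range of intensity, and the most negative points, below −5, are grey apart from Gprc5d.

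The mice within a cohort were closer to each other than to the other cohort. Between the TERT-OFF mice at 12 h the median absolute log2 difference of a gene was 0.18, and between the TERT-ON mice 0.196. Between a TERT-OFF and a TERT-ON mouse it was 0.294 to 0.382 in the 4 pairs. Only 279 genes differed by over 1 between the TERT-OFF mice, against 1313 to 2107 between cohorts. At 0 h and 6 h the TERT-OFF mice were further apart (0.291 and 0.338), so the spread that the test uses is wider than the 12 h arrays show by themselves. Fitted on the 4 arrays of 12 h alone, the test called 2377 genes, 1371 higher (10.9%) and 1006 lower (8.00%), 18.9% in all, with few degrees of freedom. Both arrays of TERT-OFF lay above both of TERT-ON for 4804 genes (38.3%) and below them for 3489 (27.8%).

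Tert itself had intensities of 11.0 and 8.32 in the TERT-OFF mice and of 64.6 and 47.8 in the TERT-ON mice. Both TERT-OFF values lay below both TERT-ON values. The difference was −2.54 ± 0.43 (SE, adjusted p = 0.0263), a 5.82-fold lower level. Both TERT-OFF values were close to the floor of 7.71, so this fold is imprecise. Before and after, the difference was smaller (−0.53, −1.38 and −1.35 at 0, 6 and 24 h). Within cohorts the change from 0 h to 12 h in TERT-OFF was −4.33 (adjusted p = 0.00163) and that in TERT-ON −2.32 (adjusted p = 0.0823). Tert signal in the TERT-ON mice was thus also lower than at their first biopsy (357 and 216), and their 12 h values stood between the low TERT-OFF values and that start. The difference between these changes was −2.01 and did not pass (adjusted p = 0.283). Among the 12 telomerase and shelterin genes Tert was the only one called.

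A fall or a rise is here a difference between the cohorts at 12 h and not a change over time. The 12 largest falls among called genes led with proteins of the hair cortex. Gprc5d codes for an orphan receptor made in the hair cortex and had 12.8 and 41.0 in TERT-OFF against 995 and 1917 in TERT-ON. Its difference was −5.91 ± 0.87 (SE, adjusted p = 0.0281). It lacks values for TERT-OFF replicate 2 at 0 h and 6 h, and for TERT-ON replicate 1 at 6 h, so its SE rests on fewer arrays. Krtap28-13, a keratin-associated protein, had 11.1 and 17.2 against 186 and 717 (−4.72 ± 0.64, adjusted p = 0.0283), again with no value for that mouse at 0 h and 6 h, nor for TERT-ON replicate 2 at 6 h and 24 h. In both, the TERT-OFF mice lay far below either TERT-ON mouse, and the 0 h difference, from TERT-OFF replicate 1 alone, was already −6.53 and −4.54.

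The other 10 were not hair shaft genes by name. Fzd5, a Frizzled receptor for Wnt ligands, stood at 41.8 and 55.5 against 393 and 375 (−2.99 ± 0.66, adjusted p = 0.0461). Lrat, which esterifies retinol, stood at 16.7 and 10.5 against 122 and 111 (−3.13 ± 0.67, adjusted p = 0.0435). Slc7a8, an amino acid transporter, stood at 38.1 and 52.8 against 347 and 330 (−2.91 ± 0.48, adjusted p = 0.0259). Its difference was −0.47 at 0 h and −1.03 at 6 h. At 0 h it had stood at 53.5 and 170 against 162 and 107. Its change from 0 h to 12 h was −1.09 in TERT-OFF and 1.36 in TERT-ON, neither of them called. Gprc5a, a retinoic acid-inducible receptor related to Gprc5d, stood at 10.6 and 10.9 against 113 and 101 (−3.31 ± 0.55, adjusted p = 0.0263). For Rtkn2, Kcne1 and Serpina11 both TERT-OFF arrays lay under the floor, so their differences of −3.38, −3.30 and −2.90 are at least that large. Gm12446 had 1 TERT-OFF array under the floor (−4.43), and Dclk3 (−2.91) and the unnamed transcript 6430571L13Rik (−2.83) completed the 12. Dclk3 lacks values for TERT-OFF replicate 2 at 0 h and 6 h, and its 0 h difference, from TERT-OFF replicate 1 alone, was already −2.38. All 12 had a smaller difference at 24 h than at 12 h, and 9 of the 12 a smaller one at 6 h. The 12 were picked for their 12 h differences, which alone favours smaller ones at other times. No gene passed the test of the 12 h effect against that of 6 h or 24 h.

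The 12 largest rises were led by enzymes that modify small molecules. Cyp2e1, a cytochrome P450 that oxidises ethanol and fatty acids, had 1314 and 2742 in TERT-OFF and 66.8 and 92.5 in TERT-ON. That is a 24.2-fold higher level, a difference of 4.59 ± 0.58 (SE, adjusted p = 0.0130). Inmt, an indole N-methyltransferase, had 1160 and 1725 against 114 and 71.7 (3.97 ± 0.51, adjusted p = 0.0130). Aox3, an aldehyde oxidase, had 129 and 182 against 22.2 and 14.8 (3.08 ± 0.35, adjusted p = 0.00882), and Gsta3, a glutathione transferase, had 181 and 402 against 26.8 and 50.8 (2.87 ± 0.57, adjusted p = 0.0355). None of the 4 differed much at 0 h, with values from −0.47 to 0.49.

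Inmt had the smallest difference at 24 h of the 12 rises. Its intensity in the TERT-OFF mice was 107 and 62.1 at the start, reached 1963 and 1204 by 6 h and 1160 and 1725 by 12 h, and came back to 233 and 239 by 24 h. In the TERT-ON mice it stayed between 68.7 and 361 on all 8 arrays. The difference was 3.35 at 6 h, 3.97 at 12 h and 0.16 at 24 h, but the test of the 12 h against the 24 h effect did not pass in Inmt or any other gene.

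The other 8 rises had varied roles. Fcna, a ficolin of tissue macrophages, had 785 and 1100 against 91.7 and 92.6 (3.33 ± 0.41, adjusted p = 0.0130). S100a9, a calgranulin of neutrophils and stressed keratinocytes, had 1074 and 1344 against 145 and 120 (3.18 ± 0.53, adjusted p = 0.0263), and it was the only one of the 12 with a larger difference at 24 h (5.06). Its difference was already 2.71 at 0 h. Il22ra2, a decoy receptor for interleukin 22, had 185 and 231 against 38.3 and 19.7 (2.91 ± 0.57, adjusted p = 0.0355). Igfbp3, which binds insulin-like growth factors, had 883 and 1292 against 210 and 116 (2.77 ± 0.49, adjusted p = 0.0284). Tmem100, AW551984, Galnt15 and Crygn made up the rest, with differences from 2.74 to 2.93. For all 12 both TERT-OFF mice lay above both TERT-ON mice.

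**Figure D2:**
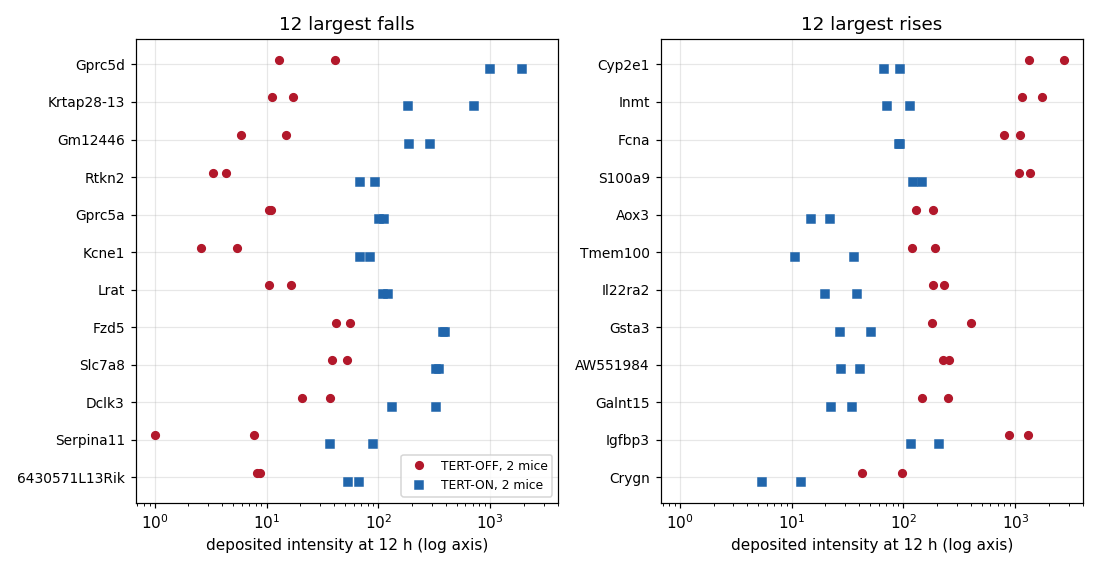
Deposited intensity at 12 h (x axis, log scale) of the 12 largest falls (left) and the 12 largest rises (right) among called genes, with 1 point per mouse, red circles for TERT-OFF and blue squares for TERT-ON. In every gene the red and blue pairs are apart. Gprc5d has the widest gap of the falls (12.8 and 41.0 against 995 and 1917), and Cyp2e1 of the rises (1314 and 2742 against 66.8 and 92.5).

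Shown are promoters of the called genes with the most negative (Gprc5d, Krtap28-13) and the most positive (Cyp2e1, Inmt) differences. The 2 falls are not the extremes of all genes, since Krt31, a hair keratin that was not called, had −6.08. Each line gives the 150 bases before the start from RefSeq (build GRCm38.p6), 5′ to 3′ on the gene's strand. Capitals mark a match on either strand to TATAAA (the TATA box), CTTTGAA or CTTTGAT (the core of Wnt-responsive TCF and LEF sites) or CACGTG (the E-box that Myc and Max can bind). Gprc5d lies on the minus strand at chr6:135118284-135118433, Krtap28-13 on the plus strand at chr1:83060780-83060929, Cyp2e1 on the plus strand at chr7:140763669-140763818 and Inmt on the minus strand at chr6:55174991-55175140.
Gprc5d: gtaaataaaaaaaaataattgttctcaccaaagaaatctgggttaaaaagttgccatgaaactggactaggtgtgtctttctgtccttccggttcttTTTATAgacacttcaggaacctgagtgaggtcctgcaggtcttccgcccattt
Krtap28-13: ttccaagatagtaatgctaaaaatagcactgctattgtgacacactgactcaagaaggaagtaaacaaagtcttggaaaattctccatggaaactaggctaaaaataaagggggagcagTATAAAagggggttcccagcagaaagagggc
Cyp2e1: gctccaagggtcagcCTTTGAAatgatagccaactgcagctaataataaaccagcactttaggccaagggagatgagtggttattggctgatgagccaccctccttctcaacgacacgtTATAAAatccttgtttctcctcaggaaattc
Inmt: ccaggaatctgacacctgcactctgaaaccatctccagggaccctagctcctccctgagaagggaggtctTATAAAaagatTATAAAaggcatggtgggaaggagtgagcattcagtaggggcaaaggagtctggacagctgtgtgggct
All 4 hold the letters TATAAA, at 31 bases before the start in Krtap28-13 and Cyp2e1, and Gprc5d holds them on the opposite strand. Over windows of 300 bases (250 before and 50 after the start), TATAAA was found in 27 of 183 called higher genes with a promoter in the table (14.8%), 2 of 64 called lower genes (3.12%) and 816 of 10108 genes tested (8.07%). CTTTGAA was found in 3.28% of the called higher, 4.69% of the called lower and 3.78% of the tested genes, CTTTGAT in 2.73%, 0% and 2.53%, and CACGTG in 6.01%, 7.81% and 10.1%. Each motif was counted by itself. A match is a run of letters and no evidence of binding.

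The genes that build the hair were far lower in TERT-OFF skin, yet almost none was called. Of 67 genes tested for the shaft keratins, keratin-associated proteins, inner root sheath and hair cuticle, 65 had a difference below 0 and 63 a difference of −1 or lower. In 62 of the 67 both TERT-OFF mice lay below both TERT-ON mice, against 27.8% of all genes. Only Gprc5d was called, with an SE of 0.87 and no values for TERT-OFF replicate 2 at 0 h and 6 h. Whether it would be called with those values was not tested. The median SE of the 67 genes was 2.02, against 0.227 over all genes. On the 4 arrays of 12 h alone, 12 of 12 hair shaft keratins, 29 of 33 keratin-associated proteins, 12 of 15 inner root sheath genes and 7 of 8 cuticle and cortex genes were called lower, where 8.00% of all genes were.

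Krt31, a type I keratin of the hair cortex, had 8.90 and 114 in the TERT-OFF mice and 1366 and 3377 in the TERT-ON mice (−6.08 ± 2.50, adjusted p = 0.151). Krt35, an early keratin of the cortex, had 7.97 and 172 against 1398 and 2281 (−5.59 ± 1.86, adjusted p = 0.0942). Krt27, a keratin of the inner root sheath, had 12.2 and 406 against 4692 and 5032 (−6.11, adjusted p = 0.105). In each of them TERT-OFF replicate 1 was near the floor and TERT-OFF replicate 2 higher, and both were far below the TERT-ON mice.

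The time course of the mice shows where the 12 h hair values came from. In TERT-OFF replicate 1 the mean log2 intensity of the shaft keratins was 4.33 at 0 h and 4.16 at 12 h, close to the floor on both arrays. In TERT-OFF replicate 2 the biopsies of 0, 6 and 12 h gave 10.73, 10.59 and 6.37. The TERT-ON mice stood at 9.54 and 10.78 by 12 h. TERT-ON replicate 1 also fell from biopsy to biopsy, from 10.48 at 6 h to 9.54 and then to 8.31 at 24 h, a smaller drop than that of TERT-OFF replicate 2. The shaft keratin signal thus went down after 6 h in 1 mouse of each cohort. The median difference of the 12 shaft keratins was −5.09 at 12 h, and −4.24 with the 12 h array of TERT-OFF replicate 1 left out. For the keratin-associated proteins these values were −5.57 and −4.36, for the inner root sheath list −5.39 and −4.02, and for the cuticle and cortex list −5.46 and −4.50. Krt75, a keratin of the companion layer, was less far apart (186 and 282 against 1859 and 2452, −3.22). Gata3, a regulator of the inner root sheath that the epidermis also uses, was level (1161 and 1309 against 1097 and 1366, 0.01).

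The regulators of the follicle matrix were lower too, without calls. Of 21 matrix transcription factors 18 had a difference below 0, with a median of −1.29. Msx2, a homeobox gene of the matrix, had 26.5 and 52.9 against 305 and 633 (−3.55, adjusted p = 0.0718), Dlx3 111 and 139 against 468 and 786 (−2.29, adjusted p = 0.103) and Hoxc13 31.2 and 73.4 against 361 and 494 (−3.14, adjusted p = 0.0829). Foxn1, the gene lost in nude mice, was at 29.2 and 29.3 against 91.6 and 216 (−2.27, adjusted p = 0.224). In all 4 both TERT-OFF mice lay below both TERT-ON mice, as they did for 27.8% of all genes. With the 12 h array of TERT-OFF replicate 1 left out, the median of the list was −1.43. Nfatc1, a factor that holds bulge stem cells at rest, ran the other way (350 and 256 against 185 and 115, 1.04, adjusted p = 0.0813).

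Melanocyte genes, which depend on the growing follicle for pigment, had a median of −1.87 over 13 genes, and 12 of 13 were below 0 with none called. Without the 12 h array of TERT-OFF replicate 1 that median was −1.61. Mlana had 68.6 and 185 against 331 and 1186. The lineage factors Mitf (−0.10) and Sox10 (0.09) were level between the cohorts, while the pigment genes Oca2 (−3.09) and Trpm1 (−3.44) were lowest.

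Among signals of the hair cycle few genes passed. Over all genes 1.90% were called higher and 0.668% lower. Of 25 Wnt ligands and receptors, Fzd5 was called lower and Wnt2, a ligand of mesenchyme, higher, at 59.0 and 71.9 against 10.9 and 17.2 (2.25 ± 0.38, adjusted p = 0.0274). The ligand Wnt11 was lower without a call, at 27.8 and 34.5 against 105 and 121 (−1.86 ± 0.60, adjusted p = 0.0882). So was Wnt5a, with −1.28 to −1.90 over its probe sets. The Wnt antagonist Sfrp2 was the only 1 of 22 antagonists, transducers and targets called, at 116 and 191 against 47.9 and 29.0 (2.00 ± 0.45, adjusted p = 0.0481). Grem1, a BMP antagonist, was called higher out of 23 genes of BMP and TGF-beta signalling (107 and 86.6 against 38.5 and 38.1, 1.33 ± 0.29, adjusted p = 0.0441). Bambi, a decoy receptor of that pathway, was at 26.4 and 69.3 against 415 and 740 (−3.69, adjusted p = 0.0717). Cdon, a Shh co-receptor, was called higher of 12 Shh pathway genes (372 and 435 against 124 and 127, 1.68 ± 0.34, adjusted p = 0.0394). The ligand Shh had 11.1 and 77.8 against 107 and 309 (−2.63, adjusted p = 0.244). Without the 0 h array of low Gapdh ratio, Fzd5, Sfrp2, Grem1 and Cdon lost their calls and Wnt2 kept its call.

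Of 22 FGF and IGF genes 3 were called, all higher, namely Igfbp3, Fgf7 and Fgfr1, against 1.90% of all genes. Fgf7, a growth factor that fibroblasts send to keratinocytes, stood at 199 and 202 against 66.9 and 82.0 (1.44 ± 0.28, adjusted p = 0.0355) with both of its probe sets called. Of the 3 probe sets of its receptor family member Fgfr1, 1 was called. Fgf5, the factor that ends anagen, was at 7.96 and 3.72 against 140 and 128 (−4.10 ± 1.13, adjusted p = 0.0659), with both TERT-ON mice high and 1 TERT-OFF array under the floor. Fgf18, a telogen factor, was at 60.5 and 76.8 against 15.3 and 20.3 (1.95, adjusted p = 0.0641). Of 15 Notch genes Rbpj was called higher on 1 of its 3 probe sets (0.96).

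Stem cell and basal layer genes did not pass. The 19 bulge genes had a median of 0.10 with none called. Cd34, a surface marker of bulge stem cells that vessels and dermal cells also carry, had 825 and 1147 against 448 and 339 (1.32, adjusted p = 0.0752). Lgr5, of cycling follicle stem cells, had 135 and 208 against 339 and 249 (−0.80, adjusted p = 0.312). Over 15 basal keratinocyte genes the median was 0.25.

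Genes of dividing cells were lower on balance. Of 30 mitosis genes 29 had a difference below 0 and 26 an unadjusted p under 0.05, with a median of −1.0, against 0.06 over all genes. Aurka and Aurkb, the Aurora kinases of spindle and chromosome segregation, were called, 2 of 30 where 0.668% of all genes were called lower. Aurkb had 30.1 and 32.2 against 79.4 and 102 (−1.53 ± 0.28, adjusted p = 0.0317), and both of its probe sets were called. Aurka had 40.0 and 49.0 against 118 and 134 (−1.50 ± 0.32, adjusted p = 0.0418). The cyclin-dependent kinase Cdk1 had 351 and 336 against 690 and 809 (−1.12, adjusted p = 0.0690), and Mki67, the proliferation antigen, 291 and 337 against 513 and 728 (−0.96, adjusted p = 0.158). On the 4 arrays of 12 h alone 27 of the 30 were called lower, where 8.00% of all genes were. Without the 0 h array of low Gapdh ratio 1 was, Aurkb, where 0.39% of all genes were.

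The mitosis genes were the list in which 6 h and 12 h were furthest apart among those of the cell cycle. Their median difference over the biopsies of 0, 6, 12 and 24 h was −0.13, −0.19, −1.0 and −1.0. In TERT-OFF replicate 2 their mean log2 intensity over the first 3 biopsies was 7.68, 7.88 and 6.72, and in TERT-OFF replicate 1 it was 7.82, 7.02 and 6.63. The TERT-ON mice stood at 7.50 and 7.83 by 12 h. The TERT-OFF mice thus reached like values at 12 h by different courses. No gene passed the test of the 12 h against the 6 h effect, in which 400 genes had an unadjusted p under 0.05.

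For DNA replication and S phase all 32 genes were below 0 at 12 h, with a median of −0.69, and 4 were called, where 0.668% of all genes were called lower. Without the 0 h array of low Gapdh ratio 2 were, where 0.39% of all genes were. Rrm2, a subunit of ribonucleotide reductase that makes the building blocks of DNA, had 223 and 200 against 524 and 644 (−1.46 ± 0.25, adjusted p = 0.0263), on all 3 of its probe sets. Tk1, thymidine kinase, had 100.2 and 120 against 232 and 323 (−1.32 ± 0.30, adjusted p = 0.0478). The helicase subunit Mcm5 (−1.02) and the clamp loader subunit Rfc5 (−0.84) were the others. Pcna, the sliding clamp, was among the smaller differences, at 1974 and 1667 against 2106 and 2405 (−0.31, adjusted p = 0.124). Ccnd2, a D cyclin of the growing follicle, was called lower on 1 of its 7 probe sets (794 and 940 against 1794 and 1689, −1.01 ± 0.22, adjusted p = 0.0457). Myc, a driver of cell growth, was level at 198 and 202 against 186 and 216, and no member of the 11 genes of the Myc, Max and Mad family was called.

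**Figure D3:**
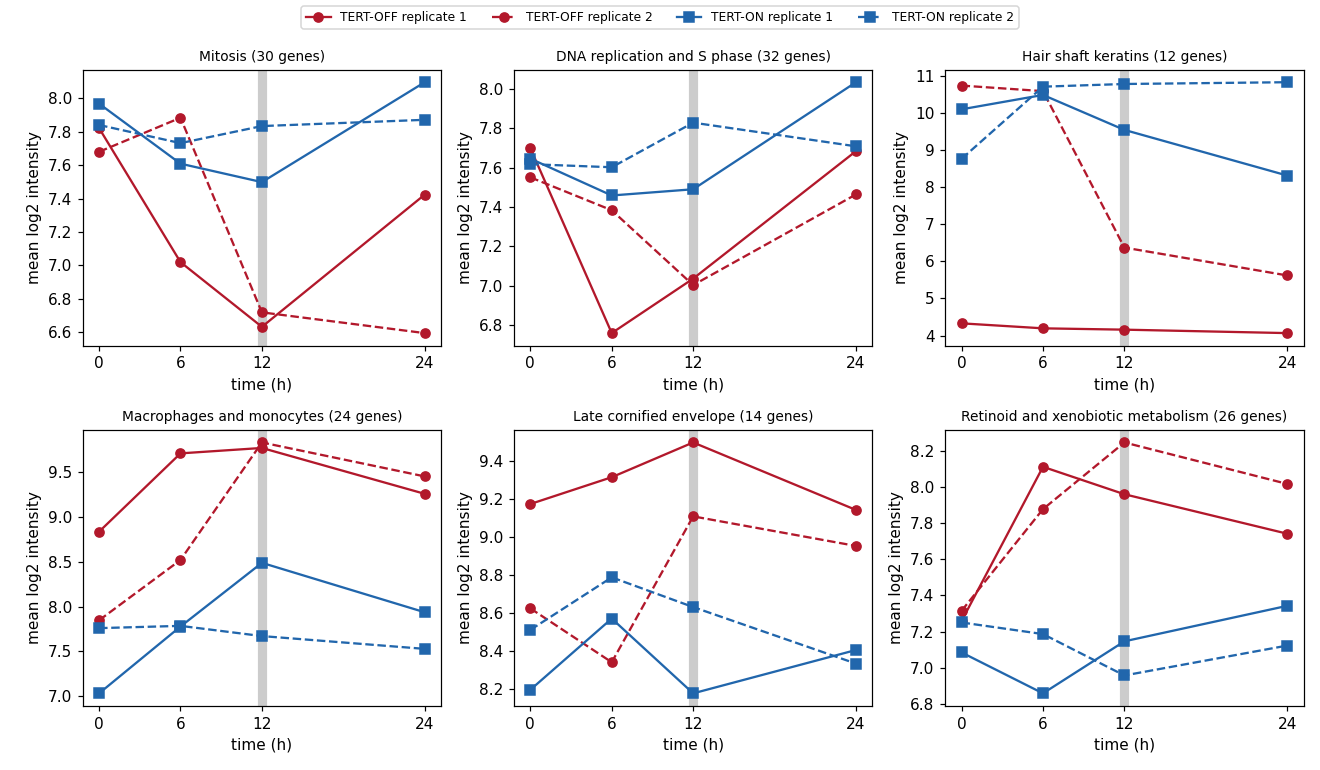
Mean log2 intensity of 6 gene lists (y axes, which differ between panels) against hours (x axes), 1 line per mouse, red circles for TERT-OFF and blue squares for TERT-ON, solid for replicate 1 and dashed for replicate 2, with 12 h shaded. TERT-OFF replicate 1 starts at 4.33 for hair shaft keratins while the other mice start at 8.76 to 10.73. At 12 h both TERT-OFF mice are below both TERT-ON mice in mitosis, S phase and shaft keratin genes and above them in the other 3 panels.

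The lists of immune cells had medians above that of all genes. Of 24 macrophage and monocyte genes 24 were above 0 and 23 had an unadjusted p under 0.05, with a median of 1.65. Called higher were 5 of the 24, where 1.90% of all genes were. On the 4 arrays of 12 h alone 22 of the 24 were, where 10.9% of all genes were. Cd163, a scavenger receptor of tissue macrophages, had 1575 and 1643 against 505 and 311 (2.02 ± 0.37, adjusted p = 0.0304). Lyve1, a hyaluronan receptor of resident macrophages and lymphatic vessels, had 868 and 731 against 120 and 189 (2.40 ± 0.49, adjusted p = 0.0397). Itgam (1.90), Fcgr3 (1.85) and Fcna (3.33) were the others, while Csf1r, the receptor that sustains macrophages, was at 2101 and 2206 against 1147 and 621 (1.35, adjusted p = 0.0777). The TERT-ON mice differed from each other in this list, with mean log2 intensities of 8.49 and 7.67, while the TERT-OFF mice were at 9.77 and 9.83. At 0 h the median difference of this list was already 1.02, with TERT-OFF replicate 1 the highest mouse (8.84).

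Of 13 neutrophil genes 4 were called higher, namely S100a9, S100a8, Pglyrp1 and Il1b, where 1.90% of all genes were, and all 13 were above 0 with a median of 1.48. S100a8 had 1124 and 1510 against 262 and 307 (2.20 ± 0.39, adjusted p = 0.0333), after a difference of 1.94 at 0 h. Pglyrp1 and Il1b had differed by 1.34 and 0.87 at 0 h. The receptors that define circulating neutrophils were dim, with Cxcr2 at 4.66 to 15.5 and Csf3r at 4.71 to 29.2 on the 4 arrays. Il1b, the interleukin 1 beta gene that macrophages also make, had 121 and 152 against 52.6 and 45.3 (1.48 ± 0.30, adjusted p = 0.0374).

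Cytokine genes included 1 of the lowest adjusted p-values. Cxcl13, a chemokine that attracts B cells, had 1714 in TERT-OFF replicate 1, no value in TERT-OFF replicate 2, and 317 and 223 in the TERT-ON mice. The difference of this probe set, 2.66 ± 0.27 (adjusted p = 0.00882), therefore rests on 1 TERT-OFF array. The other Cxcl13 probe set was called too (3.28 ± 0.27, adjusted p = 0.00161), with the lowest adjusted p of all probe sets at 12 h. Cxcl13 was the only 1 of 21 chemokine genes called. Of 27 interleukin and receptor genes 5 were called higher, where 1.90% of all genes were. Il1r2, a decoy receptor for interleukin 1, had 1508 and 1599 against 363 and 341 (2.14 ± 0.29, adjusted p = 0.0130). Il31ra, part of the receptor for the itch cytokine interleukin 31, had 158 and 182 against 37.6 and 22.2 (2.55 ± 0.57, adjusted p = 0.0478). Il1f9, an epithelial interleukin 1 relative, had 611 and 424 against 177 and 109 (1.87 ± 0.35, adjusted p = 0.0348). Its difference was already 1.71 at 0 h, and the cohorts' changes from then differed by 0.16 (adjusted p = 0.903). In all 3 the cohorts did not overlap.

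The other immune lists were higher on balance with few calls, where 1.90% of all genes were called higher. Complement genes had 13 of 13 above 0, a median of 1.15 and calls in Cfp (2.13) and C1s1 (1.27). Interferon-stimulated genes had 21 of 21 above 0, a median of 0.94 and a call in Ifi27l2a (1.86). Antigen presentation genes were 14 of 14 above 0 with a median of 0.47 and no call. Cd3g, a chain of the T cell receptor complex, was the only 1 of 13 T cell and Langerhans cell genes called (257 and 290 against 99.0 and 79.9, 1.62 ± 0.31, adjusted p = 0.0355). Mast cell genes had a median of 1.18 over 10 genes and no call.

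Of 23 fibroblast and collagen genes 21 had a difference above 0 and 2 below, with a median of 0.80. Called higher were 5 and lower 1, where 1.90% and 0.668% of all genes were. Eln, elastin, had 765 and 924 against 159 and 129 (2.55 ± 0.43, adjusted p = 0.0263) on 1 of its 2 probe sets. Lox, which crosslinks collagen and elastin, had 1176 and 1310 against 382 and 231 (2.06 ± 0.30, adjusted p = 0.0177) on both. Pdgfra, the receptor that marks dermal fibroblasts, was called on 1 of its 3 probe sets (1.65), and Dpt (1.20) and Fap (0.89) were the others. Col12a1, a fibril-associated collagen, ran against them at 67.1 and 95.3 against 382 and 208 (−1.82 ± 0.40, adjusted p = 0.0452), a call lost without the 0 h array of low Gapdh ratio. The main fibrillar collagens Col1a1 (0.64) and Col3a1 (0.46) did not pass. Adamts5, an aggrecanase, was called higher (1.15). Of 17 endothelial genes 3 were called, Flt4 (1.87), Tek (1.40) and Lyve1, which the macrophage list shares.

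The enzymes of retinoid and foreign compound metabolism held the most calls of any list, 9 of 26, all higher, where 1.90% of all genes were, with a median of 1.25. Besides Cyp2e1, Inmt and Gsta3 they were Fmo2 (2.74), Aldh1a1 (2.60), Adh1 (2.51), Aox1 (1.81), Sdr16c5 (1.54) and Fmo1 (1.51). Adh1, an alcohol dehydrogenase that acts on retinol, had 791 and 1052 against 204 and 126 (2.51, adjusted p = 0.0263). Aldh1a1, which turns retinal into retinoic acid, had 517 and 766 against 88.6 and 121 (2.60, adjusted p = 0.0284). The other retinal dehydrogenases ran the other way without calls, with Aldh1a2 at −1.79 (adjusted p = 0.0951) and Aldh1a3 at −0.78 (adjusted p = 0.0736). So did the retinol uptake receptor Stra6 (−2.08, adjusted p = 0.0936). Cyp1a1, the classic target of the aryl hydrocarbon receptor, was at 31.9 and 65.1 against 61.4 and 37.7 (−0.08).

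In the cornified layer, late cornified envelope genes were higher as a group. All 14 were above 0, with a median of 1.23, and 4 were called higher, where 1.90% of all genes were, Lce1d, Lce1a2, Lce1c and Lce1a1, of which none was called without the 0 h array of low Gapdh ratio. Lce1a2 had 2959 and 2342 against 1074 and 1100 (1.28 ± 0.27, adjusted p = 0.0438). The Lce3 genes, which respond to wounding, overlapped between the cohorts, for example Lce3c at 402 and 111 against 121 and 310 (0.12). These genes are near-identical neighbours, so probes may read more than 1 of them. Hrnr, a giant filaggrin relative, was the only one of 20 suprabasal genes called (1900 and 1642 against 953 and 676, 1.14 ± 0.21, adjusted p = 0.0317), and that list had a median of −0.06. Wound keratins and small proline-rich proteins had a median of −0.42 at 12 h against 3.04 at 24 h, with Stfa3 called (1.13, after 2.23 at 0 h with adjusted p = 0.000898) and Krt17 at 2003 and 1762 against 4957 and 3675 (−1.18, adjusted p = 0.0630).

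Genes of muscle and fat, which do not belong to the follicle or epidermis, were also higher on balance in TERT-OFF skin at 12 h. Skeletal muscle genes, from the muscle sheet under the skin, were above 0 in 18 of 19, with a median of 1.25. Their summed intensity was 41862 and 52788 in the TERT-OFF biopsies and 21520 and 26991 in the TERT-ON biopsies, and no marker was near 0 (lowest 157). Mylpf, a fast muscle myosin light chain, was called (1.26). At 0 h the median had been −0.72, with the TERT-ON biopsies higher. The sums were then 41259 and 35539 in TERT-OFF and 51221 and 64879 in TERT-ON. At 6 h the cohorts overlapped, at 53242 and 27819 in TERT-OFF and 21732 and 39081 in TERT-ON. Adipocyte genes summed to 13050 and 17778 against 10810 and 10915, 11 of 13 were above 0 and Retn was called (1.63). The muscle and adipocyte lists thus held 1 call each, where 1.90% of all genes were called higher. On the 4 arrays of 12 h alone 14 of 19 muscle genes and 5 of 13 adipocyte genes were called higher, where 10.9% of all genes were. The part of muscle or fat in the differences of immune, stromal and metabolic genes was not tested.

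**Figure D4:**
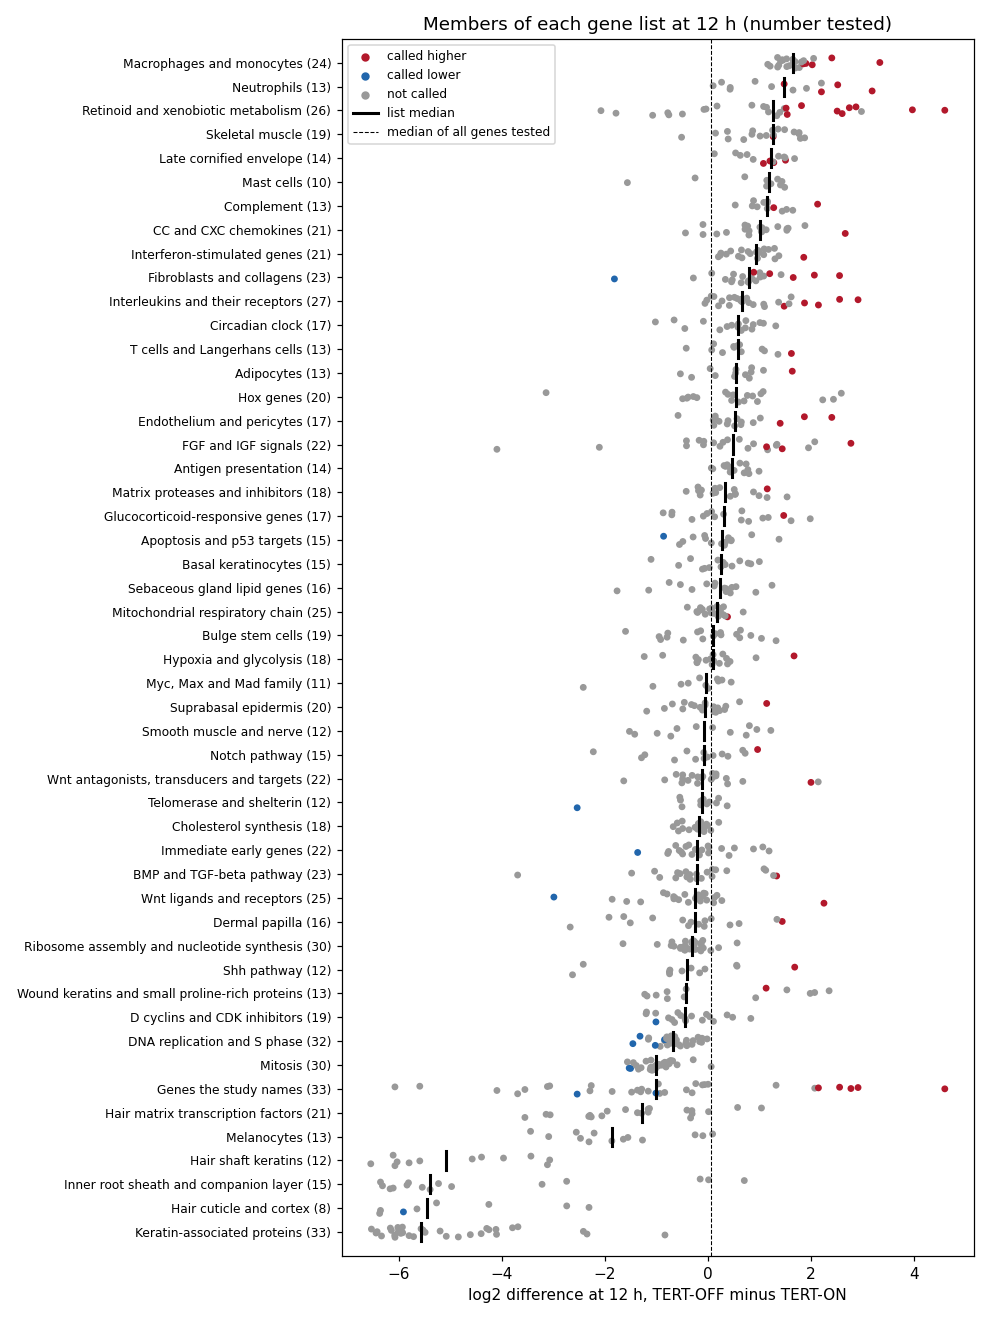
Log2 difference at 12 h (x axis, TERT-OFF minus TERT-ON) of each tested member of 50 gene lists with at least 8 members (y axis, number tested in brackets), in red where called higher, blue where called lower and grey otherwise. Black bars are list medians and the dashed line is the median of all genes (0.06). Hair structure lists sit near −5 with almost no blue points, and macrophage, neutrophil and metabolic enzyme lists are the furthest right.

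Signalling by stress and hormones gave single calls. Egr1, an immediate early transcription factor, had 487 and 498 against 1236 and 1302 (−1.37 ± 0.25, adjusted p = 0.0333), and it was the only one of 22 such genes called. Sesn2, a stress-induced inhibitor of growth signalling, was called lower of 15 apoptosis and p53 genes (−0.86). That call was on 1 of its 2 probe sets, and the other stood at −0.08 (adjusted p = 0.837, limma). Cebpd was called higher of 17 glucocorticoid-responsive genes (1.47) and Adm, adrenomedullin, of 18 hypoxia and glycolysis genes (1.67), each on 1 of its 2 probe sets. None of 17 clock genes, 20 Hox genes, 18 cholesterol synthesis genes or 30 genes of ribosome assembly and nucleotide synthesis passed, with medians of 0.59, 0.54, −0.17 and −0.31. Of 25 respiratory chain genes Ndufa4 was called, by a small difference of 0.38. The lists of Egr1, Sesn2, Cebpd, Adm and Ndufa4 held 1 call each, where 1.90% of all genes were called higher and 0.668% lower. Cebpd, Adm, Sesn2 and Ndufa4 lost their calls without the 0 h array of low Gapdh ratio, and Egr1 did not. On the 4 arrays of 12 h alone 9 of the 20 Hox genes were called higher and 1 lower. Of the 17 clock genes 5 were called higher and 2 lower there. In that fit 10.9% of all genes were called higher and 8.00% lower. Other medians were −0.42 for Shh, −0.26 for dermal papilla, −0.07 for smooth muscle and nerve and 0.23 for sebaceous genes, against 0.06 for all genes.

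Within the cohorts fewer genes passed. From 0 h to 12 h the TERT-OFF cohort had 13 genes higher and 7 lower at 12 h (0.159% of the genes tested, 0.103% higher and 0.0556% lower), the same mice serving as their own start. Cxcl13 was furthest up (4.44, with 1 of the TERT-OFF values at 12 h missing), followed by Inmt (4.12), Pamr1 (3.09), Aox3 (2.99), Fcna (2.55), Adm (2.24) and Lox (2.02). Tert was furthest down (−4.33), followed by Plod2 (−2.28), a collagen lysyl hydroxylase, and Spred1 (−2.11). In the TERT-ON cohort 3 genes were higher, Cxcl13 (2.14), Atp6v0a4 (1.76) and Cxcl14 (1.31), and 5 lower (0.0636%, with 0.0238% higher and 0.0397% lower), including Ampd1 (−2.82) and the clock gene Nr1d1 (−1.64). These TERT-ON calls depend on the 0 h array of replicate 1 with the low Gapdh ratio, since no probe set passed without it. Cxcl13 was called up in both cohorts, from 78.3 and 77.0 at 0 h in the TERT-OFF mice and from 55.6 and 65.7 in the TERT-ON mice.

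In limma no gene passed the test of the difference between the cohorts' changes from 0 h to 12 h, although 1847 had an unadjusted p under 0.05. The lowest adjusted p was 0.132. The comparison at 12 h and these changes share the 12 h arrays and are not independent. For Inmt the change in TERT-OFF was 4.12 and in TERT-ON −0.32, a difference of 4.44 (adjusted p = 0.145). For Aox3 they were 2.99 and 0.07 (difference 2.92, adjusted p = 0.167). Against the 24 h effect, 661 genes had an unadjusted p under 0.05 and none passed.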

How the data were processed

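Total RNA of each biopsy was hybridised to 1 Affymetrix array. The authors deposited intensity values per probe set, normalized in dChip to an invariant set of probes and summarised by the model of perfect-match minus mismatch differences, which makes dim values uncertain. Here 45101 probe sets were read, values under the table's 20th percentile (7.71) were raised to it, log2 was taken, and probe sets above the table median (34.4) on at least 2 arrays and with a value in every group were kept (25563). One limma fit (version 3.58.1, R 4.3.3) had 8 group means, the mouse as random block (correlation 0.0728) and an intensity trend, with two-sided tests and Benjamini-Hochberg adjustment over all probe sets. The fit was tested on simulated data first. The number of arrays limits the precision. Genes named were the 12 largest falls and rises among called genes with all 4 values, and up to 4 called members of each of 52 lists. Genes the study names fell under the rule too, but not all of them are given. Other list members were named after their values were seen. The members and lists were chosen with earlier results of these data known. Of the list symbols 867 were tested. Alternatives covered the floor, filter, scaling, block, trend, samples in the fit and each mouse. Of 12580 genes 10108 matched a RefSeq promoter. Replicate numbers were not taken to pair mice across cohorts. The correlation of replicate deviations between cohorts was 0.0986 at 12 h and from −0.323 to 0.527 over all pairs of times. Within a cohort it was 0.120 to 0.637 in TERT-OFF and −0.149 to 0.323 in TERT-ON. These values do not settle which biopsies share a mouse.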

Additional observations from a re-analysis of the deposited data

How the results depend on the processing

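With 2 mice in each cohort, precision is limited, and dim genes near the floor have no order. Of 528 called probe sets (323 genes), counts stayed within 1.5 times with either other floor, a stricter filter, both other scalings, no mouse block, only complete probe sets and the median of the probe sets of a gene. They were 89 (29 genes) with no filter, 331 (203) without the intensity trend, 1663 (960) with replicate number as a block, 4198 (2377) on the 12 h arrays alone and 1712 (917) on those of 6, 12 and 24 h. Without the TERT-ON replicate 1 array of 0 h, an alternative chosen after seeing the data, 342 probe sets (216 genes) were called. Leaving out 1 mouse gave 0 to 806 probe sets and 0 to 521 genes, and leaving out 1 array of 12 h gave 2 probe sets without either TERT-OFF array, 20 and 5 with TERT-ON replicate 1 or 2 left out (0, 1, 13 and 3 genes). The cause was not tested.

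For the change in TERT-OFF (38 probe sets) the counts were 97 with the floor at the median, 58 with no filter, 61 with centred arrays and 22 without the block, and 7 to 28 without a mouse. For the change in TERT-ON (16) they were 28 with the floor at the median, 31 with no filter, 10 with the mouse as a fixed replicate block, 0 without the 0 h array of replicate 1, and 0 to 92 without a mouse. The difference of changes (0) gave 6 with the floor at the median, 22 with no filter and 0 to 13 without a mouse. The 12 h against 6 h effect (0) gave 22 with no filter. The 12 h against 24 h effect (0) gave 9 with the floor at the median, 29 with no filter and 0 to 2 without a mouse. The mouse as a fixed replicate block changed no other of these counts by over 1.5 times.

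Of 52 lists, 25 had a median below 0, and 22 to 26 under other scalings or without 1 array of 12 h; 8 lists changed sign, none with a median further than 0.42 from 0. None of the 74 called genes named kept the call without TERT-ON replicate 1. Genes that were not called reversed sign near 0. Myc went from 0.00 to −0.064 with centred arrays and −0.0077 after quantile normalization, and ranged from −0.11 to 0.11 without a mouse and from −0.12 to 0.12 without 1 array of 12 h, with −0.0085 without that of TERT-OFF replicate 1. Without a mouse Kitl ranged from −0.88 to 0.044, Lef1 from −0.66 to 0.038, Krt5 from −0.26 to 0.044 and Krt14 from −0.22 to 0.088. These are values of the brightest probe set of each gene. Another Kitl probe set was called lower with all mice (−1.70 ± 0.33, adjusted p = 0.0355, limma), and another stood at −0.37. Another Lef1 probe set stood at −1.40 (adjusted p = 0.194, limma). Without 1 array of 12 h the reversed values were 0.058 for Kitl, 0.031 for Lef1, 0.040 for Krt5 and 0.088 for Krt14.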

Other observations

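Some called genes that the lists do not cover fall into families; they were picked out after their values were seen, so their number supports nothing by itself. The C-type lectins Cd209b (1.98), Cd209f (1.70) and Cd209g (1.76), made by tissue macrophages and dendritic cells, were called higher in TERT-OFF skin, as was Vsig4 (2.58), a complement receptor of resident macrophages. Of the renin-angiotensin system, the precursor Agt (2.17), the converting enzyme Ace (1.75), the receptor Agtr1a (1.79) and the aminopeptidase Enpep (1.47) were called higher. Steroid handling was represented by Hsd11b1 (1.74), which regenerates glucocorticoid, Hsd17b11 (1.65) and the estrogen receptor Esr1 (1.76) on the higher side and by Hsd17b2 (−2.07) on the lower. The transcription factors Osr2 (2.41), Emx2 (2.25) and Prrx1 (1.61), known from mesenchyme, were called higher. Mybl2 (−2.81), a transcription factor of dividing cells, and Ret (−2.45), a receptor tyrosine kinase, were called lower.

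Spred1, an inhibitor of Ras signalling, had 1133 and 1513 in the TERT-OFF mice and 2073 and 1557 in the TERT-ON mice at 0 h, and 288 and 318 against 679 and 516 at 12 h. Its change from 0 h was −2.11 (adjusted p = 0.00177, limma) in TERT-OFF and −1.60 (adjusted p = 0.0192) in TERT-ON. All 4 mice were lower at 12 h than at 0 h. Spred1 was called lower at 12 h (−0.97 ± 0.21, adjusted p = 0.0469), and another of its probe sets was called too (−0.92). Its other probe sets were lower without a call, from −0.31 (adjusted p = 0.349) to −1.15 (adjusted p = 0.141). Spred1 lay outside the naming rule and was chosen after its values were seen.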
